A study of Mus musculus with 9 samples.

Results

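Binding of HOXA13 and HOXD13 was examined around 7 genes of the forming digit joints, Gdf5, Gdf6, Nog, Wnt9a, Erg, Osr1 and Osr2, of 21938 protein-coding genes on chromosomes 1 to 19, X and Y. For each gene, every peak summit in the gene body or within 100 kb either side was taken from every peak list, on the mm10 assembly with GENCODE annotation. The windows held between 52 and 161 summits in each wild-type list, whose full length was 31195 to 126869 summits. Intervals of the 6 wild-type lists that overlapped by at least 1 bp were joined into sites, which gave 175 sites around the 7 genes and 138424 in the genome.

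The study placed a copy of a digit enhancer of the HoxD locus in another regulatory domain and mapped HOX13 binding by CUT&RUN, in which an antibody tethers a nuclease to a DNA-binding protein and the released fragments are sequenced. All libraries came from untreated distal forelimbs of B6CBAF1 mouse embryos. There were 3 wild-type (wt) HOXA13 and 3 wt HOXD13 libraries at E12.5, 2 HOXA13 libraries at E12.5 from the II1TDOM 542 line (542), and 1 HOXD13 library from the 542 line labelled E11.5. The 542 line is 1 founder line, homozygous for an inserted copy of the enhancer II1 with a promoter and lacZ on chromosome 2, and its reads were mapped to a genome holding the insert. Gdf5 lies on chromosome 2 past the insertion site, so it was described from the wt lists alone. Tissue of several embryos was pooled for each library, and no control library entered the peak lists. A peak list holds no expression values, so the labelled tissue could not be checked against its marker genes, and the lists do not separate joint cells from other cells of the limb.

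Synovial joints of the digits start as interzones, bands of flattened cells that leave the cartilage programme where a joint will form. Gdf5 and Gdf6 encode BMP-family ligands of the interzone, Nog encodes the BMP antagonist Noggin, Wnt9a encodes a Wnt ligand that opposes cartilage formation, Erg encodes an ETS transcription factor of articular cartilage, and Osr1 and Osr2 encode zinc finger factors of joint and connective tissue mesenchyme. HOXA13 and HOXD13 are the posterior homeodomain factors of the digit territory and bind closely related A/T-rich sequences.

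The sequences below show the summit of 1 distal site for each gene other than Gdf6, the one of its 2 named distal sites with the higher median fold enrichment percentile, and the Erg promoter, since most of the values that follow are read at these sites. Distal stretches cover 60 bp either side of the median summit of the wt lists that called the site, on the plus strand of GRCm38, the assembly of mm10. The Erg stretch is the 250 bases before the start in the RefSeq promoter table (GRCm38.p6, minus strand). Capitals mark ATAAA or GTAAA on either strand, the core that HOX13 consensus letters share.
Gdf5 +82.1 kb, chr2:155863211-155863331: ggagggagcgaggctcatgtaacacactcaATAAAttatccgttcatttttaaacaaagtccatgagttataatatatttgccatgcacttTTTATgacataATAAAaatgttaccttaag
Nog -71.3 kb, chr11:89373536-89373656: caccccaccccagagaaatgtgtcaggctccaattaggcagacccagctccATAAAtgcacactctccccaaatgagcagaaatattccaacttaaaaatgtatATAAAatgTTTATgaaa
Wnt9a +57.3 kb, chr11:59364186-59364306: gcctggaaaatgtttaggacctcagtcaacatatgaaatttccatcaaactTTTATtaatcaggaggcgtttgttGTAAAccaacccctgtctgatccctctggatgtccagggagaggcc
Erg -15.9 kb, chr16:95602467-95602587: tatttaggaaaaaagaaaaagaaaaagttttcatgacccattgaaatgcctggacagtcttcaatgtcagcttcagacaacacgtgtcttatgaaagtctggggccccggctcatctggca
Erg promoter, chr16:95586594-95586843: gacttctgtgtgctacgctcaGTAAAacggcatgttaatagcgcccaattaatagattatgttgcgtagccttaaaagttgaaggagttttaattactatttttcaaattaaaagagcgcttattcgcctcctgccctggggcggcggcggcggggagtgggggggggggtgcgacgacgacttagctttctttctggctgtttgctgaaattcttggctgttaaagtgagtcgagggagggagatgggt
Osr1 -95.3 kb, chr12:9479055-9479175: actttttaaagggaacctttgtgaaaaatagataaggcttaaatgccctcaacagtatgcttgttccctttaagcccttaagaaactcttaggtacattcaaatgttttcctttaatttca
Osr2 +63.4 kb, chr15:35359432-35359552: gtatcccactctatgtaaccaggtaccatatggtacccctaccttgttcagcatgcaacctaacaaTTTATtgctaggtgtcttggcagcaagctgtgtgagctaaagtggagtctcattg

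The Gdf5 stretch held 3 cores, the Nog stretch 3, the Wnt9a stretch 2, the Osr2 stretch and the Erg promoter 1 each, and the stretches of Erg -15.9 kb and Osr1 none. The longer consensus was searched as CCNATAAA, CCNGTAAA, CTNATAAA and CTNGTAAA on either strand, so that every match also holds a core. None of the stretches printed above held it. Windows of 121 bp around the sites of the genome called in all 6 wt lists held the consensus at 28.2% and a core at 68.0%. At the 25 such sites of the 7 genes the shares were 16.0% and 80.0%. The corresponding shares among RefSeq promoter stretches of 250 bases were 9.14% and 51.2%. A match is a run of letters and not a measured contact.

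Before the values are compared, 2 libraries need to be set apart. Replicate 3 of both antibodies had flatter peaks than the other wt libraries: the 95th percentile of fold enrichment, the height of a summit over its local background, was 6.09 and 6.04 in them and 7.42 to 10.62 in the other 4. Per the study, the third replicates were read at another length, and the label of HOXD13 replicate 3 marks it as an earlier library analysed again. Replicates 3 differ from replicates 1 and 2 in read length and in peak shape together, so results that rest on them are given with and without them. The lists also differed in length, from 23939 intervals (HOXD13 replicate 1) to 86941 (HOXA13 replicate 1) among wt and 74344 to 117719 among 542. Read ends behind each list numbered about 36900000 to 65500000. Whole read-end pileups were recovered from the deposited values for at least 99.9% of summits, and heights are given as pileup per 10000000 read ends. Among named sites called in at least 4 wt lists they rested on 18 to 1514 read ends in the wt libraries. The exact Poisson 95% intervals of these extremes were 10.7 to 28.4 and 1440 to 1590, and cover counting error only. Scaled to read ends, shared sites of the genome had a median log2 difference of 0.53 for wt HOXA13 minus wt HOXD13. For wt HOXA13 minus 542 HOXA13 it was -0.52. Heights of single sites carry these offsets.

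Sites called in all 6 wt lists were found around 6 of the 7 genes. There were 6 at Gdf5, 5 at Gdf6, 2 at Nog, 2 at Wnt9a, 7 at Erg, 3 at Osr2 and none at Osr1, 25 of 175 in all (14.3%). In the genome 10.0% of joined sites were called in all 6 wt lists. The share was 28.6% at Gdf5 and 27.8% at Gdf6, the BMP-family ligands, and 7.41% at Wnt9a, and at the other end 77 of the 175 sites were called in 1 list. The share of genome sites called in 1 list is not given here. HOXD13 replicate 1, the shortest list, held no interval in the Osr1 window. Without it 38 of 173 sites of the 7 genes were shared by the other lists, beside 14.1% in the genome. Without both replicates 3 the count was 31 of 155, beside 15.6% in the genome.

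Most of these sites lay away from promoters. A promoter site is here a summit within 1000 bp of an annotated transcript start of the gene, and 11 of the 175 sites met this, most of them in 1 list. Of the 25 sites in all 6 wt lists, 4 (16.0%) had their median summit within 1000 bp of a start of any gene, beside 29.7% of the 13891 such sites in the genome. Their main summits spanned a median of 240 bp over the 6 lists, beside 255 bp in the genome. The span ran from 36 bp at the Wnt9a +50.1 kb site to 491 bp at a site of the Gdf5 window at the start of Ergic3.

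**Figure D1:**
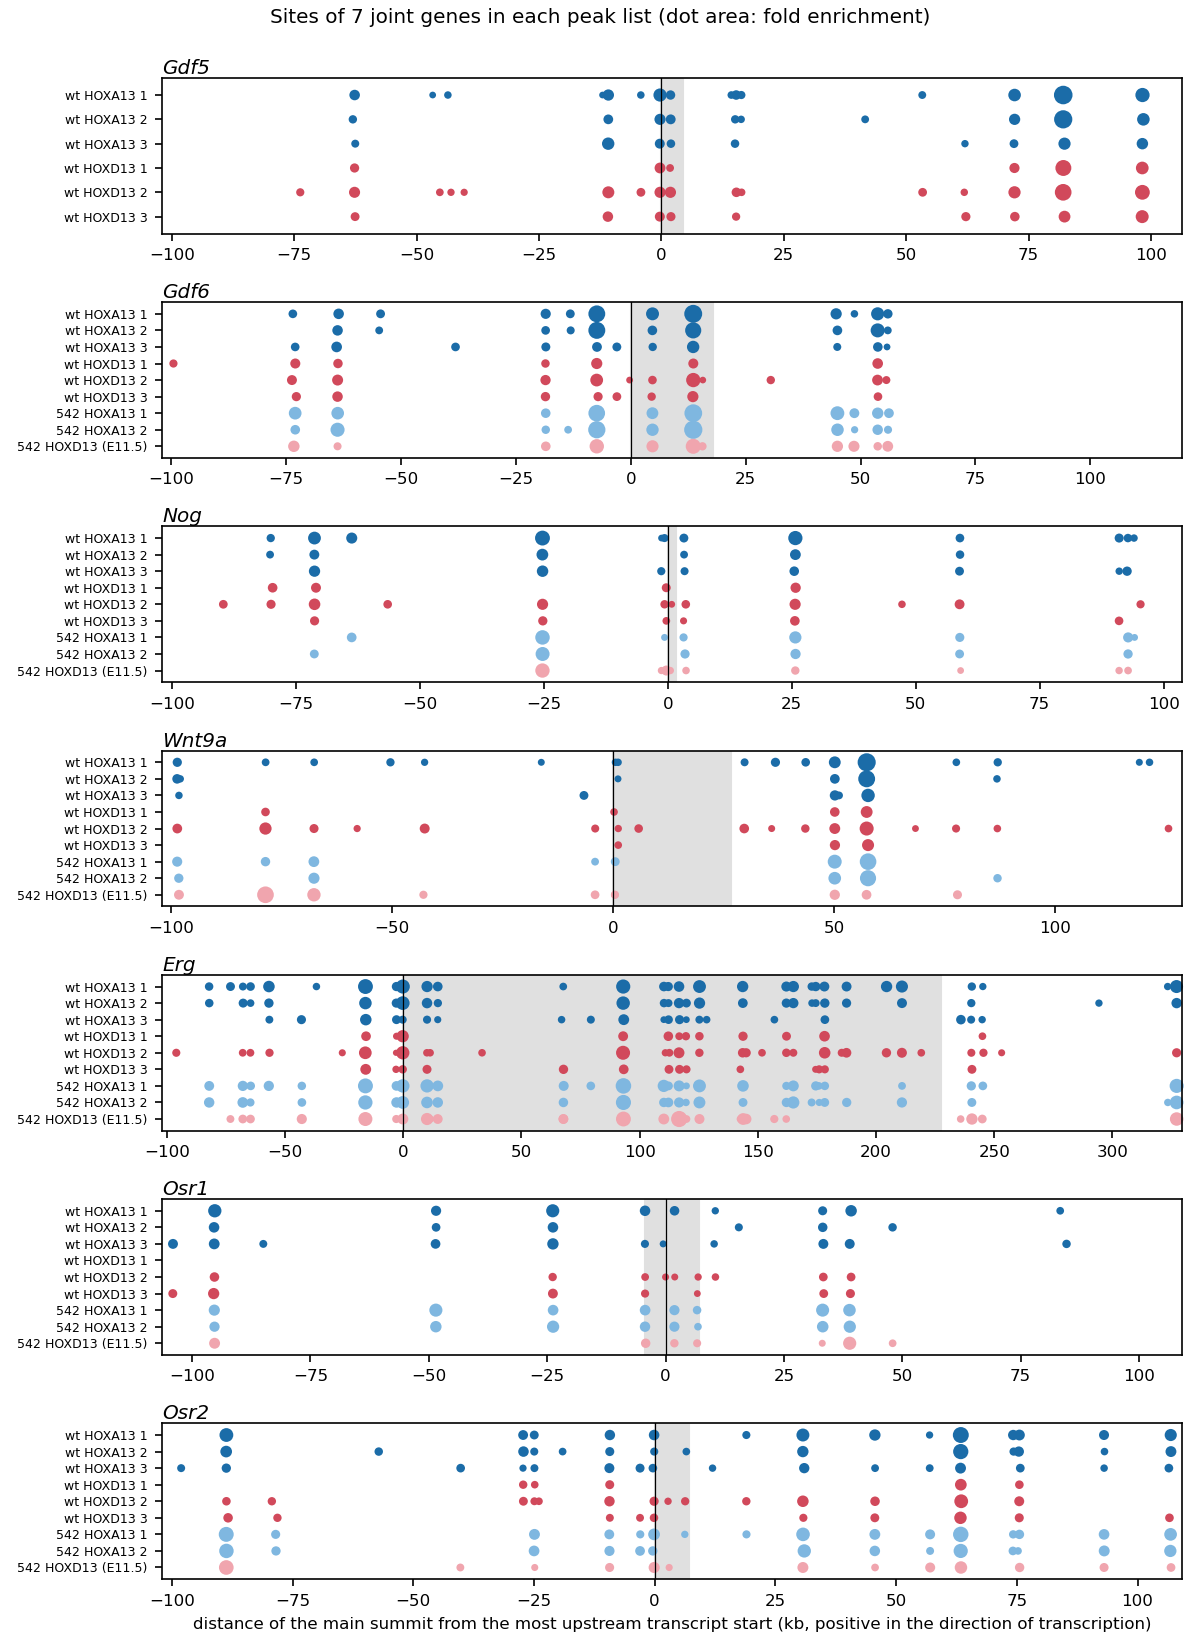
Main summit of every joined wt site of the 7 genes in each list, by distance in kb from the most upstream transcript start (vertical line, gene body in grey), 1 row per list, with dot area in proportion to fold enrichment. Columns of dots are sites shared between lists. Gdf5 has wt rows alone, and the wt HOXD13 replicate 1 row of Osr1 is empty.

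Promoters of 2 of the 7 genes, Gdf5 and Erg, held a summit in all 6 wt lists, while 19.7% of protein-coding genes did. The Gdf5 promoter site (chr2:155945242-155946348, median main summit at -291 bp from the start) had pileups of 36.2, 20.2 and 14.8 in HOXA13 replicates 1 to 3 and 12.45, 24.4 and 15.7 in HOXD13 replicates 1 to 3. The ranges of the antibodies overlapped. The Erg promoter site (chr16:95585642-95587360, median main summit at -231 bp from the most upstream of 6 starts) was taller, with 75.1, 49.5 and 14.6 in HOXA13 and 25.2, 50.5 and 13.5 in HOXD13. Both replicates 3 lay at the bottom of this range. In the 542 libraries the Erg promoter reached 86.3 and 62.4 with HOXA13 and 42.6 with HOXD13. Its main summits lay within 52 bp of each other over the 6 wt lists, and those of the Gdf5 promoter within 57 bp.

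The other promoters were called less evenly. At Osr2 a promoter summit stood in 5 wt lists, all 3 of HOXA13 (pileups of 11.6, 6.16 and 11.9) and 2 of HOXD13 (9.36 and 9.21), and in all 3 542 lists. At Nog a summit at -340 to -304 bp from the start was called in all 3 HOXD13 lists (7.26, 10.7 and 7.86) and in 1 HOXA13 list (8.51). The Nog site overlaps an exon of the lincRNA gene Gm2018, which starts 106 bp from its median summit, so the peak cannot be assigned to either start alone. Gdf6 had a promoter summit in 1 wt list (fold enrichment 2.14) and Osr1 and Wnt9a in 2 each, with fold enrichments of 2.25 to 2.67. In the other 5 wt lists the summit nearest to the Gdf6 start lay at -7043, -3034, -3025, 4701 and 4731 bp.

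The 2 named distal sites of Gdf5 lay past its 3′ end, inside Uqcc1, a neighbouring gene for a mitochondrial complex III assembly factor. The tallest site of all 7 genes, in an intron of Uqcc1 82.1 kb past the Gdf5 start (chr2:155862224-155863843), had a fold enrichment between the 96.6th and 99.7th percentile of each wt list. Its pileups were 274, 163 and 48.5 in HOXA13 replicates 1 to 3 and 50.6, 101 and 40.1 in HOXD13 replicates 1 to 3. HOXA13 replicates 1 and 2 stood above every HOXD13 library and replicate 3 below 2 of them. A second site 98.3 kb past the start, in an untranslated exon of Uqcc1 (chr2:155846442-155847559), had pileups of 27.5, 16.1 and 18.2 in HOXA13 and 12.2, 30.3 and 27.1 in HOXD13. Here the antibodies overlapped throughout. The window of Gdf5 holds 6 other protein-coding genes, and sites in it at Uqcc1, Cep250 and Ergic3 had summits 68, 336 and 5 bp from the starts of these genes.

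Gdf6 carried a strong site on each side of its start. The one in its own intron 13.6 kb past the start (chr4:9857490-9858559) had pileups of 72.9, 39.7 and 26.0 in HOXA13 and 8.30, 25.6 and 14.1 in HOXD13. Every HOXA13 library was above every HOXD13 library, the lowest of the former by a narrow margin. In the 542 line HOXA13 gave 82.2 and 76.9 and HOXD13 45.7. The intergenic site at -7.4 kb (chr4:9836500-9837750) showed 49.8, 37.0 and 21.1 in HOXA13 against 10.1, 19.9 and 15.7 in HOXD13, again without overlap. Both separations are on the read-end scale, where the median log2 difference of all shared sites was 0.53 in favour of HOXA13. How many of those sites separated the antibodies was not counted. In 542 the -7.4 kb site reached 86.3 and 80.0 with HOXA13, above all 3 wt HOXA13 libraries, and 33.3 with HOXD13. On the read-end scale the median log2 difference of all shared sites, wt minus 542 HOXA13, was -0.52. Centred on each library's median, the site differed by -0.75 ± 0.31 (SE, adjusted p = 0.24 in the limma fit given below).

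At Nog, the antagonist of these ligands, the sites were lower. The intergenic site 25.7 kb past the start (chr11:89276108-89277008) had 19.5, 9.56 and 5.84 in HOXA13 and 6.23, 8.02 and 5.69 in HOXD13. In 542 HOXA13 it gave 8.30 and 6.04, within the wt range. The site at -71.3 kb (chr11:89372938-89374221), between Nog and Ankfn1, had 12.49, 7.22 and 12.57 in HOXA13 and 6.23, 10.7 and 8.67 in HOXD13. It was called in 1 of 2 542 HOXA13 lists, at 4.47, and not in the 542 HOXD13 list.

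The strongest site near Wnt9a lay 57.3 kb past its start in intergenic sequence, 8423 bp from Prss38 (chr11:59363786-59364979). Pileups were 86.1, 50.3 and 25.1 in HOXA13 and 11.4, 27.2 and 16.5 in HOXD13. HOXA13 replicate 3 fell between the HOXD13 libraries and the other HOXA13 libraries lay above them. In 542 HOXA13 both values, 30.2 and 29.1, lay within the wt range, and the 542 HOXD13 library showed 5.19. The site at 50.1 kb (chr11:59356706-59357770) was low and even, with 11.4, 6.80 and 7.63 in HOXA13 and 5.45, 8.86 and 8.40 in HOXD13.

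Erg, the longest of the 7 genes, had 49 sites. The intronic site 93.0 kb past the start (chr16:95492657-95494209) showed 23.3, 17.4 and 18.2 in HOXA13 and 7.004, 17.9 and 11.1 in HOXD13. An intergenic site at -15.9 kb (chr16:95601928-95603045) showed 27.7, 16.1 and 14.8 in HOXA13 and 5.71, 19.2 and 10.3 in HOXD13. At both, HOXD13 replicate 2 fell inside the HOXA13 range and the other HOXD13 libraries below it. In 542, the intronic site gave 25.2 and 22.8 with HOXA13 and 25.5 with HOXD13, and the intergenic site 25.7, 22.1 and 15.0. Over the 6 wt lists, the protein-coding genes whose interval numbers were most like those of Erg were Stx8, Wipf1 and Med13l, at Euclidean distances of 0.177, 0.187 and 0.224 in log2 of intervals per 10000 list intervals plus 1.

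The zinc finger genes differed in how widely their sites were called. Osr1 had no site in all 6 lists, and 3 were called in 5, of which those at -95.3 kb and -23.8 kb (chr12:9478600-9479744 and chr12:9550207-9551372) were the more enriched. The former had 12.49, 6.37 and 11.2 in HOXA13 and 5.01 and 11.7 in HOXD13 replicates 2 and 3, and the latter 9.77, 6.37 and 14.6 and 3.84 and 10.6. At both the antibodies overlapped. Osr2 had a strong intergenic site 63.4 kb past its start (chr15:35358806-35360337) with 53.2, 39.1 and 16.6 in HOXA13 and 13.0, 23.9 and 19.8 in HOXD13. HOXA13 replicates 1 and 2 lay above the HOXD13 range and replicate 3 inside it. The 542 libraries gave 30.4 and 28.4 with HOXA13 and 11.8 with HOXD13. A further site at 75.5 kb (chr15:35370975-35372110) had its summit 454 bp from the start of Vps13b, in an untranslated exon of that gene, and pileups of 4.67 to 7.42 in the 6 wt libraries.

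**Figure D2:**
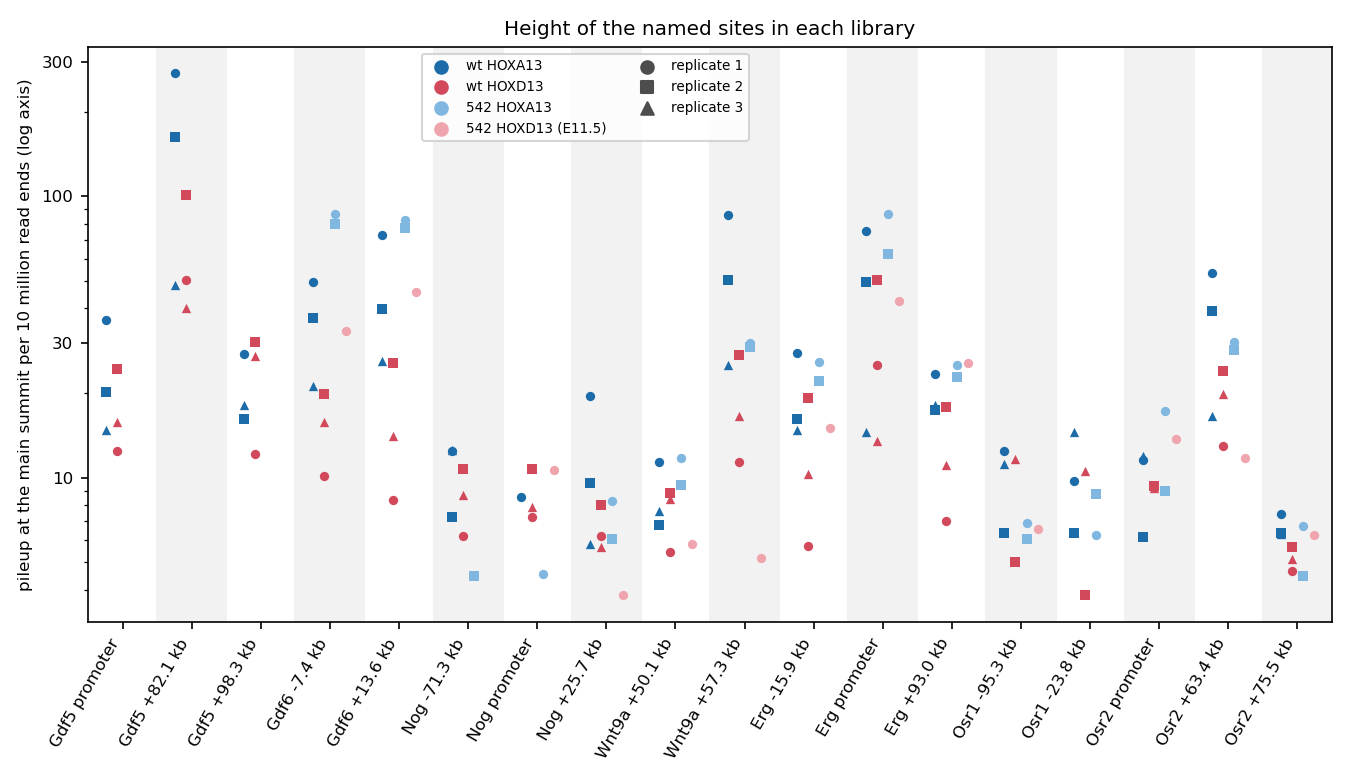
Pileup at the main summit per 10000000 read ends (log axis) at the 2 distal sites named for each gene and the promoter sites called in at least 4 wt lists, 1 point per library, coloured by group and shaped by replicate number. The Gdf5 +82.1 kb site has the highest values (274 and 163 in wt HOXA13 replicates 1 and 2), and replicates 3 (triangles) are low at the tallest sites.

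Whether the 2 antibodies differed in height was tested with limma on log2 pileup, centred on each library's median, over the 13891 sites called in all 6 wt lists. None of the 25 sites of the 7 genes passed an adjusted p of 0.05, where 0.0648% of all sites did (9 sites, all lower with HOXA13), although 2625 sites had an unadjusted p under 0.05. The lowest adjusted p values among the 25 were 0.15 at Gdf6 +13.6 kb, with a log2 difference of 1.05 ± 0.30 (SE) in favour of HOXA13, 0.16 at Wnt9a +57.3 kb (0.96 ± 0.30) and 0.19 at an Erg site at -2.9 kb (0.79 ± 0.27). The median over the 25 sites was -0.11 and over all sites 0.02. Scaling by read ends in place of the median moved the median of all sites to 0.53 and that of the 25 to 0.39, so that 22 of the 25 lay above 0 instead of 11.

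The calls changed once the third replicates were allowed their own level. With read length as a term in the limma fit over all 6 libraries, added after the data were seen, 5 of the 25 sites passed, 4 higher with HOXA13 and 1 lower, beside 12.3% and 8.75% of all shared sites. Higher were Gdf6 +13.6 kb (log2 difference 1.05 ± 0.23 SE, adjusted p = 0.0029), Wnt9a +57.3 kb (0.96 ± 0.22, 0.0044), Erg -2.9 kb (0.79 ± 0.22, 0.014) and Gdf6 -7.4 kb (0.70 ± 0.22, 0.025), and lower was Gdf5 +98.3 kb (-0.61 ± 0.21, 0.044). With the replicate number as a block, the same 4 sites passed as higher and none as lower, beside 10.9% and 7.86% of all shared sites. Gdf5 +82.1 kb (0.62 ± 0.24, 0.064) and Osr2 +63.4 kb (0.33 ± 0.23, 0.32) did not pass with read length as a term.

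With replicates 1 and 2 alone, an alternative added after the data were seen, 18799 sites were shared by the 4 lists, 31 of them at the 7 genes. In limma 6 of the 31 were higher with HOXA13 and none lower, beside 12.9% of all shared sites higher and 7.23% lower. The 6 were Wnt9a +57.3 kb (log2 difference 1.27 ± 0.23 SE, adjusted p = 0.0014), Gdf6 +13.6 kb (1.26 ± 0.26, 0.0031) and -7.4 kb (0.97 ± 0.23, 0.0075), Gdf5 +82.1 kb (0.93 ± 0.23, 0.0094), Erg -2.9 kb (0.91 ± 0.25, 0.016) and Osr2 +63.4 kb (0.75 ± 0.23, 0.027). The strongest distal sites of Gdf5, Gdf6, Wnt9a and Osr2 were among them, and no site of Nog. The Erg site at -2.9 kb (chr16:95589122-95589825), named because it passed here, had pileups of 32.4, 22.1 and 17.1 in HOXA13 and 7.78, 10.9 and 9.75 in HOXD13. These pileups did not overlap on the read-end scale, which is offset towards HOXA13 over all shared sites. How many shared sites separated in this way was not counted. Over local background the site was low, with fold enrichments of 1.8 to 3.97 in the wt lists. Its median fold enrichment percentile within them was 28.6 (range 0.0748 to 63.7).

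Height moved with this difference. Among the tallest 5% of sites shared by replicates 1 and 2, the median log2 difference was 0.50 and 42.0% were called higher with HOXA13, against -0.02 and 11.4% in all other sites. Of the 6, Gdf5 +82.1 kb and Wnt9a +57.3 kb were in that tallest class, at height percentiles of 99.9 and 95.7, and the rest lay between 75.9 and 93.1. The Erg promoter, at percentile 98.2, had a difference of 0.15 ± 0.22 (adjusted p = 0.66), and the Gdf5 promoter one of 0.01 ± 0.23 (0.99). The part of height, or of peak-to-background contrast of each library, in the 6 calls was not tested.

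In presence and absence the antibodies differed at few sites. All 3 HOXA13 lists and no HOXD13 list called 4 of the 175 sites, beside 1.32% of sites in the genome, and the reverse held for none, beside 0.0318%. The 4 were Gdf6 +44.9 kb, Erg +14.6 kb, Osr1 -48.5 kb and Osr2 +93.1 kb, named because they are few. Their pileups in wt HOXA13 ran from 3.14 to 12.1, and their median fold enrichment percentiles within the lists were 63.8, 32.8, 65.5 and 14.9 in that order. In the 542 lists all 4 were called in both HOXA13 lists, and all but the Osr1 site in the HOXD13 list, at 4.43 to 12.7. A site missing from a list was below the threshold of that list and need not be without signal.

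The number of intervals per window, divided by list length, was next compared between the antibodies. At Gdf5 every HOXA13 list (1.57 to 1.88 per 10000 list intervals) was below every HOXD13 list (2.08 to 2.51), and at Nog likewise (1.02 to 1.39 against 1.67 to 2.13). Over all protein-coding genes 7.85% were lower in this way and 2.37% higher, against 2 and none of the 7. With 3 libraries against 3 the exact permutation test, two-sided, cannot go below p = 0.1, which both genes reached, and the adjusted p was 0.979 for both. Undivided, the ranges overlapped at both genes (Gdf5 9 to 15 against 6 to 16, Nog 6 to 12 against 4 to 13), and so did the 20000 strongest intervals of each list. HOXD13 replicates 1 and 3 were the shortest lists, while replicate 2 was longer than HOXA13 replicates 2 and 3. The other 5 genes overlapped, from Erg with a mean of 3.92 ± 0.441 (SD, n = 3) against 4.26 ± 0.672 to Osr1 with 1.38 ± 0.614 against 1.01 ± 0.941.

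Per length, most of the 7 windows were denser than those of most genes. The median over the wt lists was 7.0 intervals per 100 kb at Osr2, 5.5 at Erg, 4.89 at Gdf5, 4.82 at Gdf6, 3.97 at Nog, 3.79 at Osr1 and 2.43 at Wnt9a. Neighbours in this order overlapped in their ranges over the lists (2.41 to 7.72 at Osr2 and 2.81 to 7.49 at Erg). The lists differ in length, but Osr2 was densest in HOXA13 replicate 3 (7.72) and not in the longest wt list, HOXA13 replicate 1 (6.76). Ranked within each list among 21938 genes, the median percentile was 91.4 at Osr2, 90.2 at Gdf5, 88.9 at Erg, 85.7 at Gdf6, 77.1 at Nog, 58.8 at Wnt9a and 48.5 at Osr1. Osr1 ranged from 20.7 to 95.4 over the lists, Gdf5 from 86.7 to 95.5.

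**Figure D3:**
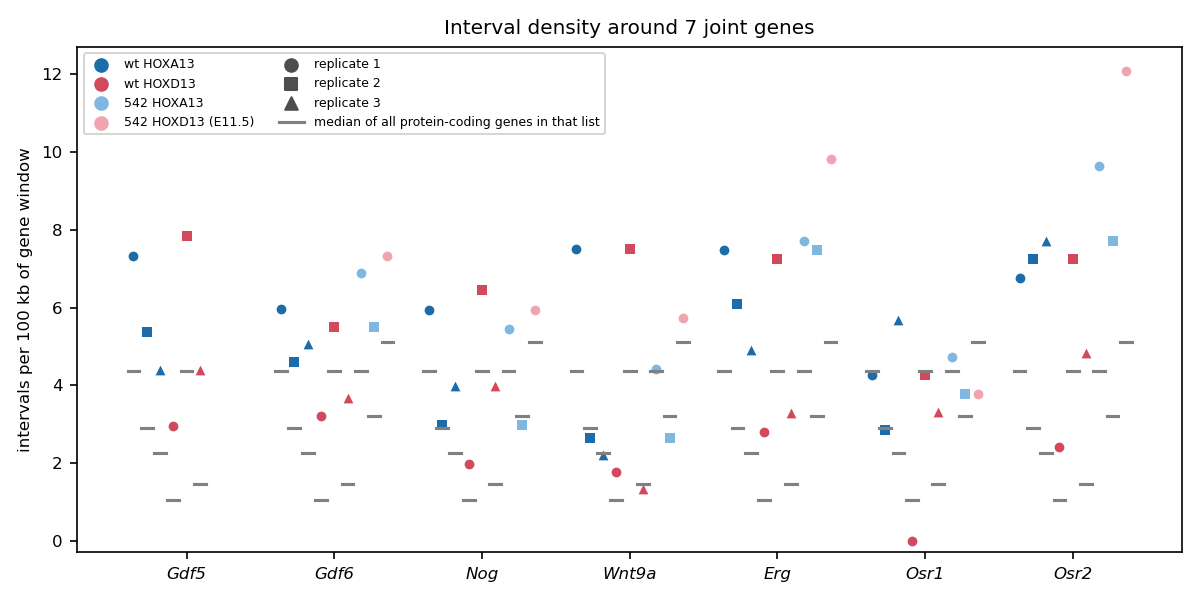
Intervals per 100 kb of gene window in each list, by gene, coloured by group and shaped by replicate number, with the median over all protein-coding genes of the same list as a grey bar. Gdf5, Gdf6, Erg and Osr2 lie above the bar in every list shown, and Osr1 has 0 in wt HOXD13 replicate 1.

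Of 20 other genes of joint and interzone biology, BMP receptors and antagonists, Wnt pathway genes and matrix genes such as Prg4 (lubricin), 18 had a median density percentile above 50, with a median over the 20 of 72.8, and 6 of the 7 did, with a median of 85.7. Promoter summits in all 6 wt lists were found at 3 of the 20 (the BMP receptors Bmpr1b and Bmpr2 and the TGF-beta receptor Tgfbr2), and 2 had one in no list (Wnt16 and Prg4), beside 19.7% and 37.0% of all protein-coding genes. The densest windows were those of Bmpr1b (6.95 intervals per 100 kb, percentile 98.0), Jun (6.15, 96.7) and Sfrp2 (7.21, 96.6).

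The consensus was less frequent at summits of the 7 genes than at all summits of the same list in 6 of 6 wt lists. In HOXA13 lists 25.5% ± 2.92 (SD, n = 3) of the intervals in the windows had a match within 100 bp of their main summit, beside 29.2% ± 1.59 of all intervals. In HOXD13 lists the values were 18.0% ± 5.93 and 25.7% ± 4.49. The lists hold 38 to 113 such intervals each, many of them the same sites, so the 6 values are not independent. With the core alone the order turned around in 5 of 6 lists (77.1% against 73.2% on average). Among sites in all 6 wt lists, 8 of 25 at the 7 genes had a match (32.0%), beside 34.9% in the genome.

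HOXA13 binding in wt and 542 limbs was compared at the 6 genes other than Gdf5. Of the 19 sites there that all 6 wt lists called, 16 were called in all 3 542 lists, beside 92.8% of 13303 such sites of the genome. The others were Nog -71.3 kb and Erg +112.2 kb and +178.3 kb, which the 542 HOXD13 list did not call. Nog -71.3 kb was called in only 1 of the 542 HOXA13 lists as well, the Erg sites in both. The 542 HOXD13 list is the library labelled E11.5, and per the study it was also read at another length. Embryonic day and read length therefore go together with genotype in this count. Over 27044 sites shared by the 5 HOXA13 lists, limma called 0.0% at an adjusted p of 0.05, so none of the 40 at the 6 genes, while 5066 had an unadjusted p under 0.05. The largest differences were at Erg +178.3 kb (1.36 ± 0.29, adjusted p = 0.092), Wnt9a +57.3 kb (1.24 ± 0.34, 0.12), Osr1 -95.3 kb (1.13 ± 0.34, 0.14) and Nog +25.7 kb (1.09 ± 0.31, 0.13), all higher in wt.

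Without wt HOXA13 replicate 3, replicates 1 and 2 of wt were set against replicates 1 and 2 of 542. Here 36090 sites were shared and 12 of 49 at the 6 genes passed in limma. Of these 8 were higher in wt and 4 lower, beside 10.7% higher and 11.6% lower over all. With so few libraries the p-values rest in part on variance that limma shares across sites, and no site passed with replicate 3 kept. Higher in wt were Wnt9a +57.3 kb (log2 difference 1.47 ± 0.18 SE, adjusted p = 4e-11), Osr2 +63.4 kb (0.96 ± 0.19, 2.6e-05), Nog +25.7 kb (1.27 ± 0.26, 7.8e-05) and Erg +178.3 kb (1.29 ± 0.28, 0.00021). Erg +162.1 kb (1.01 ± 0.27, 0.0034) and +210.9 kb (1.16 ± 0.32, 0.0041), Gdf6 +53.7 kb (0.75 ± 0.23, 0.0094) and Osr1 -95.3 kb (0.79 ± 0.29, 0.033) were the other 4. Lower in wt were Gdf6 -7.4 kb (-0.63 ± 0.17, 0.0024) and +44.9 kb (-0.86 ± 0.26, 0.0085) and Erg +110.3 kb (-0.81 ± 0.23, 0.0057) and +112.2 kb (-0.61 ± 0.23, 0.038). The site at Gdf6 +13.6 kb differed by -0.24 ± 0.16 (0.31) and the Erg promoter by 0.06 ± 0.16 (0.85). Genotype goes together with the genome the reads were mapped to. Per the study, the genome with the insert was made by altering chromosome 2, on which none of the 6 genes lies. A part of mapping in these differences was not tested. In interval number per window none of the 6 genes separated the groups, beside 14.0% of genes higher in wt and 8.23% lower.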

How the data were processed

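Peak lists of 9 CUT&RUN libraries were analysed, 1 list per library. Per the study's methods and the labels, the authors trimmed reads with cutadapt, mapped them with Bowtie to mm10, or to a genome with the insert for 542 libraries, kept proper pairs of mapping quality 30 or more, with duplicates retained in the commands given, and called summits with MACS2 without a control, extending read ends to 200 bp, at a q-value of 0.05. The deposited columns hold interval and summit positions, a score, the fold enrichment ratio over local background, and −log10 of the p-value and q-value.

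Pileup was recovered from the deposited fold enrichment and −log10 p-value, and counted as whole within 0.01 read ends. The study's commands mark duplicates without removing them, while its software list has them removed. Duplicates may therefore remain in the pileups. The main summit of an interval is that of highest −log10 p. Intervals overlapping by 1 bp were joined over the wt lists. limma 3.58.1 (R 4.3.3, trended variance) was fitted over all shared sites with Benjamini-Hochberg adjustment, without replicate block, and tested on simulated data: of 200 sites moved by 2 on the log2 scale, 65.5% were recovered for the antibodies (13891 sites) and 20.0% for the genotypes (27044 sites). Unchanged sites called numbered 6 and 0. The simulated noise was independent between libraries, whereas real libraries deviated together, so these shares need not hold for the real data. Interval numbers were compared per gene by an exact permutation test over libraries.

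Samples were grouped from their titles. The growth notes give 1 collection time, whereas a title gives E11.5. Per the study, libraries were separate pools of embryos. Sites named are each gene's promoter sites, the 2 distal sites called in most wt lists (ties by fold enrichment percentile), and any site past the limma threshold. The genes, the lists and the tests were chosen with earlier results of these data known. Sequences came from GRCm38.p6 and the RefSeq promoter table, which matched 2 of the 7 genes by symbol. The sequence of 1 Gdf6 site is not reported here. Coordinates are 1-based, GENCODE vM21 basic. Alternatives covered the height measure, scaling, stricter thresholds, joining, window and promoter size, list length, motif window, read length as a term, the replicate block and each replicate left out.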

Additional observations from a re-analysis of the deposited data

Results flagged for a closer look

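Around the 6 genes compared with 542, 3 places were called in all 3 542 lists and in no wt list, which is what singled them out. In an intron of Erg 150.8 kb past its start the fold enrichments were 3.06 and 3.98 with HOXA13 and 7.87 with HOXD13. In the Erg intron at 107.9 kb they were 2.17, 2.15 and 3.09, at a median percentile of 1.6 within the lists. In an intron of the lincRNA gene Gm33497, at -65.0 kb from the start of Osr2, they were 7.27 and 3.80 with HOXA13 and 6.62 with HOXD13, at a median percentile of 81.9. How many such places the genome holds was not counted, so their number is not read as a result about these genes. The 542 lists are longer than most wt lists. Their reads were mapped to a genome with the insert on chromosome 2, where neither Erg nor Osr2 lies. The difference from wt was not tested at these places.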

How the results depend on the processing

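The antibody comparison of shared sites (9 sites of the genome called) gave 1 call with fold enrichment as height, none with fold enrichment of at least 5 or scaled to read ends, 3 with main summits joined within 200 bp, and between 0 and 3782 when replicates were left out, the highest without both replicates 3 (chosen after seeing the data) and 664 without HOXA13 replicate 3. The genotype comparison (0 called) gave 1 with fold enrichment as height, 1 with fold enrichment of at least 5, 289 scaled to read ends (285 of them lower in wt, the median of all sites at -0.52), and 0 to 8057 when replicates were left out, the highest without wt HOXA13 replicate 3. With read length as a term, added after seeing the data, the antibodies gave 2927 calls, 5 of them at the 7 genes. As a replicate block, the numbers gave 2606 calls for the antibodies, 4 of them at the 7 genes, and 7427 for the genotypes, 10 at the 6 genes. Of the 40 sites at the 6 genes, 6 were higher in wt and 4 lower, beside 14.1% and 13.3% of all shared sites. Deviations of same-numbered libraries from their group means correlated at 0.0464, 0.3799 and 0.6856 for the antibodies. The highest value was that of replicates 3, which were read at another length. Replicate 1 of HOXA13 correlated most with replicate 2 of HOXD13 (0.6316). For the genotypes the values were 0.0856 and -0.0249. Deviations of the 2 542 libraries mirror each other, so each of these values recurs with the opposite sign. Genes with separate interval numbers between antibodies (2) came to 0 without dividing by list length, beside 2.27% of all protein-coding genes. They came to 0 in the top 20000 intervals (9.55% of all genes) and 1 in windows of 50 kb (9.25%). With same-numbered pairs as a replicate block they came to 2 (27.3%), and without a replicate to 2 to 3 (15.9% to 25.6%). Between genotypes (0) they came to 2 at fold enrichment of at least 5 (21.2%) and 1 at −log10 q of at least 5 (19.8%). In the top 20000 they came to 1 (10.2%), with the replicate block to 3 (60.2%), and without a replicate to 1 to 2 (30.7% to 46.8%). Sites in all 6 wt lists (25) fell to 4 at fold enrichment of at least 5 and 16 at −log10 q of at least 5, and ranged from 25 to 38 without a replicate, the highest without HOXD13 replicate 1. Promoters in all 6 wt lists (2) fell to 0 at fold enrichment of at least 5, beside 3.41% of all protein-coding genes. The consensus share at the 7 genes (21.7% on average) was 13.9% within 50 bp and 77.1% for the core. The cause of these changes was not tested. Lists of 23939 intervals cannot show sites that longer lists call, so absence from a list was not read as absence of binding.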
